A study of Rattus norvegicus with 3 samples.

Results

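Collagens are the structural proteins of the extracellular matrix, trimers of chains whose repeated glycine lets them wind into a triple helix. Fibrillar collagens form the tension-bearing fibres of the connective tissue around muscle fibres and of tendon, type IV collagen forms the network of basement membranes, and the beaded collagens of type VI link that network to the matrix around it. Each muscle fibre lies in a basement membrane, and slow postural muscles such as the soleus are known to be rich in collagen.

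The collagen genes were taken as every gene whose platform symbol is Col, a number, the letter a and a number, measured by a probe set annotated with exactly 1 symbol. The rule found 25 of 14506 such genes, on 27 probe sets. By class, 10 were fibrillar, 3 belonged to the basement membrane network of type IV, 1 was a beaded chain and 11 were of other kinds. Where more than 1 probe set measured a gene, the one with the highest mean stood for it. Of 45 collagen genes placed in classes, the other 20 were not analysed here, among them Col4a2, Col6a1, Col6a2, Col6a3, Col15a1, Col18a1, Col19a1, Col22a1 and Col25a1.

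The samples were soleus muscle, a slow postural muscle of the hind limb, from rats aged 7 weeks, of a strain labelled Brown. Group DN was denervated and irradiated, group TS was suspended by the tail, which takes the load off the hind limbs, and irradiated, and group Ct was irradiated alone. All 3 groups had been irradiated without a break for 2 weeks, to 50 mSv in total, so no group without irradiation was compared. RNA of the 6 rats of each group was pooled and measured on 1 Affymetrix Rat Gene 1.0 ST array per group, which leaves no spread between samples and allows no test. Every difference given is one between single pools. The labels do not give the method of denervation or the sex of the rats.

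Values are RMA expression values, read as log2, and differences are differences of log2 values. A gene was called higher or lower at 1.5-fold, a difference of 0.58, among the 10154 genes with a mean of at least 5.72, the 30th percentile. All 25 collagens passed this filter on dim genes, the closest to it being Col10a1 with a mean of 5.93. Over all 29170 probe sets the median was 6.33 in DN, 6.35 in TS and 6.32 in Ct, and the highest value 13.90, 13.99 and 13.99. The slow-fibre troponin gene Tnni1 read 13.24 in DN, 13.26 in TS and 13.49 in Ct, near the top of each array, and the slow myosin gene Myh7 read 13.06, 13.24 and 13.62, so markers of slow muscle were present in all 3 pools. RMA combines the probes of a gene by median polish, and with 3 arrays this can give exactly the same value more than once. A value of 0 for a difference is therefore no proof of equal expression. Of the 25 collagens, 9 (36%) had the same value on all 3 arrays, against 20.5% of all genes compared. In pooled tissue RNA, fewer cells of a type and less RNA per cell cannot be told apart.

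Most collagen genes read nearly alike on the 3 arrays, and 3 stood apart. Col11a1, a chain of fibrillar type XI collagen, was higher in DN and lower in TS than in Ct. Col8a1, a chain of the short network-forming type VIII collagen, was higher in both. Col23a1, a transmembrane collagen, was higher in DN. The main fibrillar chains Col1a1, Col1a2 and Col3a1 differed by at most 0.23 (log2) in any comparison.

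**Figure D1:**
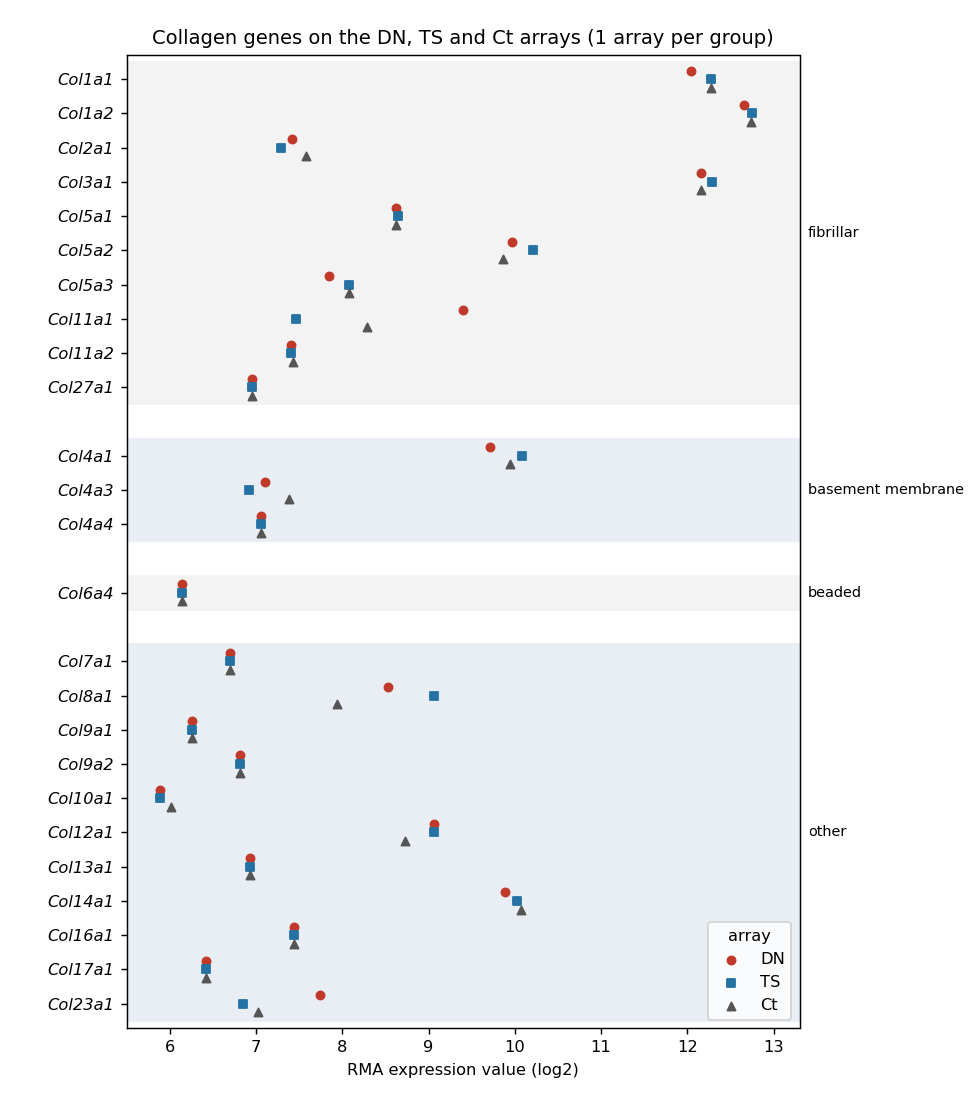
RMA expression value (log2, horizontal axis) of each of the 25 collagen genes on the DN array (circles), the TS array (squares) and the Ct array (triangles), by class from top to bottom, with 1 array per group and the 3 symbols of a gene set apart vertically so that equal values can be seen. Col11a1 lies at 9.40 in DN, 7.47 in TS and 8.29 in Ct, and Col8a1 at 8.53, 9.06 and 7.93, whereas 9 genes show the same value 3 times.

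In DN, 3 of 25 collagens were at least 1.5-fold higher than in Ct and 0 were lower, where 4.93% of all genes compared were higher and 5.53% lower. In TS, 1 of 25 was higher and 1 lower than in Ct, where 5.89% of all genes were higher and 2.68% lower. With each array centred on its median these shares of all genes in TS were 3.52% higher and 3.94% lower. In DN minus TS, 2 of 25 were higher and 0 lower, where 3.2% of all genes were higher and 5.93% lower, or 4.63% and 3.76% with centred arrays. Taken in either direction, 12% of the collagens were past 1.5-fold in DN minus Ct, against 10.5% of all genes. In TS minus Ct the shares were 8% and 8.57%, and in DN minus TS 8% and 9.13%. The collagens as a group thus held about as many such differences as genes at large. Both comparisons with Ct use the same Ct array.

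The median difference of the 25 collagens was 0.00 in each of the 3 comparisons. Over all genes compared it was 0.00 for DN minus Ct, 0.02 for TS minus Ct and 0.00 in the third comparison, DN minus TS. Centring each array on its median over the genes compared shifts every TS minus Ct difference by -0.13. The collagen median moves with it, to -0.13, and that of all genes compared from 0.02 to -0.12. The median absolute difference was 0.08 for the collagens and 0.03 for all genes in DN minus Ct. In TS minus Ct it was 0.02 against 0.12. Exactly equal values lower this median, and it was not taken with centred arrays. In DN, 5 collagens read above Ct, 9 below and 11 (44%) equal to it. Of all genes compared, 3332 read above, 2467 below and 4355 (42.9%) equal there. In TS, 8 collagens read above Ct, 7 below and 10 (40%) equal. Of all genes compared, 5340 read above, 2308 below and 2506 (24.7%) equal in TS.

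**Figure D2:**
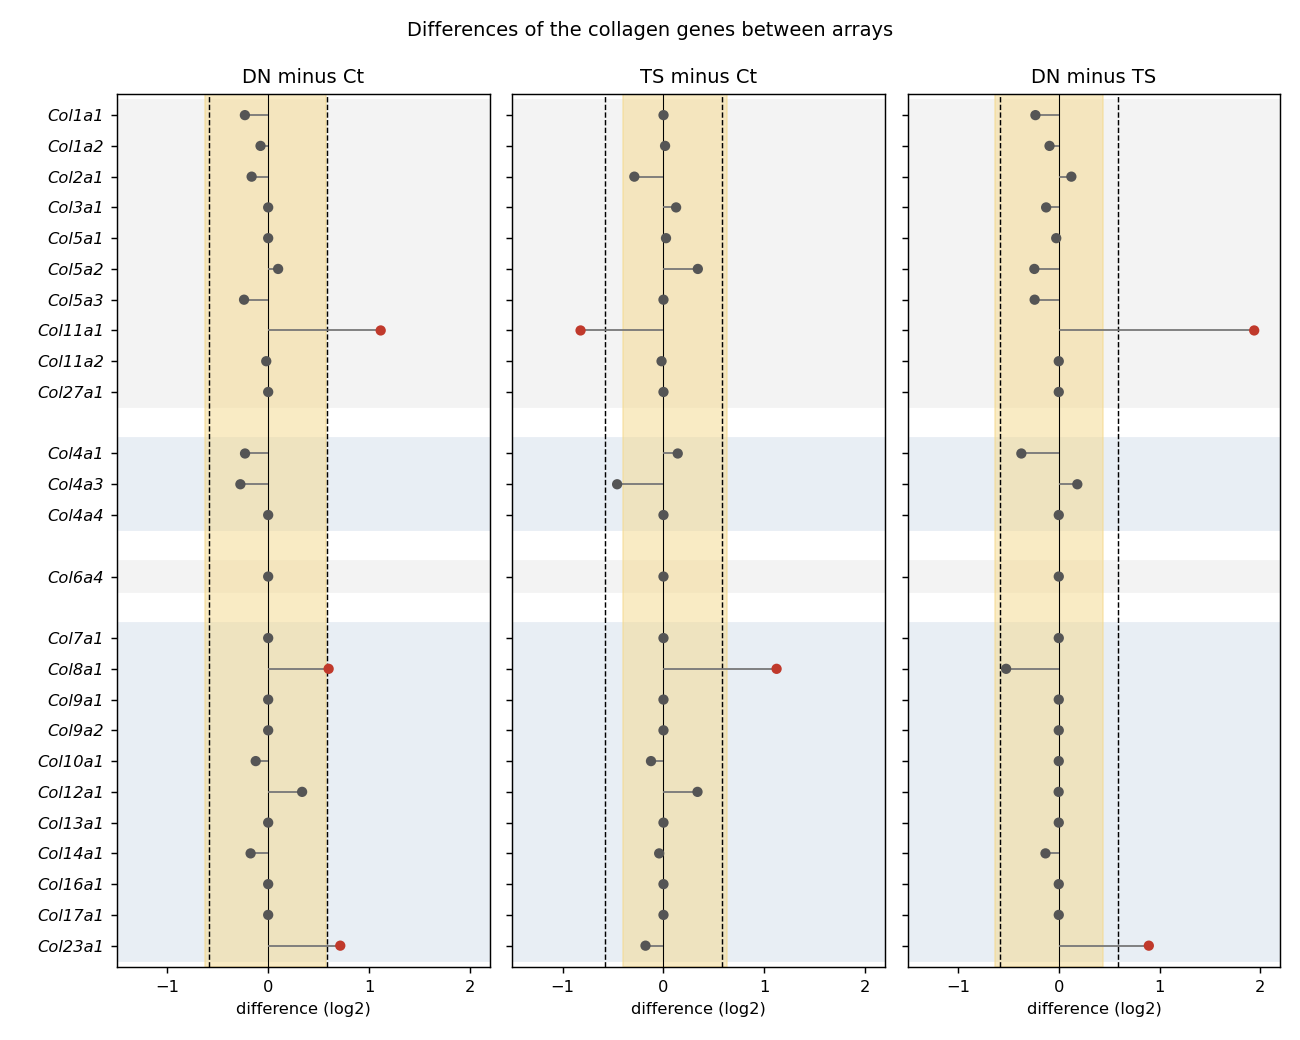
Difference in log2 value (horizontal axis) of each collagen gene in 3 panels, DN and TS each against Ct and DN against TS, with the classes in the same order as in the plot of levels, dashed lines at 1.5-fold and a yellow band over the middle 90% of all 10154 genes compared. Red points are past 1.5-fold: Col11a1 at 1.12, -0.82 and 1.94, Col8a1 at 0.60 and 1.12, and Col23a1 at 0.72 and 0.89.

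Col11a1 encodes the alpha 1 chain of type XI collagen, which joins types II and V in fibrils and limits their width. It read 9.40 in DN, 7.47 in TS and 8.29 in Ct. The TS value was the lowest of the 3 and the DN value the highest. The difference was 1.12 for DN minus Ct (2.17-fold higher), -0.82 in TS minus Ct (1.77-fold lower) and 1.94 in DN minus TS (3.83-fold higher). Among all genes compared, 188 stood at least as high in DN minus Ct, 141 at least as low in TS minus Ct and 27 at least as high in DN minus TS. Col11a2, the alpha 2 chain of the same trimer, read 7.40 in DN, 7.40 in TS and 7.42 in Ct, and Col2a1, the type II chain, 7.41, 7.29 and 7.58. Neither showed the order seen for Col11a1.

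Col8a1 encodes a chain of type VIII collagen, known from the matrix beneath endothelium and from vessel walls. It read 8.53 in DN, 9.06 in TS and 7.93 in Ct, so both DN and TS lay above Ct, TS further. The difference was 0.60 for DN minus Ct (1.52-fold), just past the limit, 1.12 for TS minus Ct (2.18-fold) and -0.52 for DN minus TS, which is short of it. In TS minus Ct, 93 of 10154 genes stood at least as high, and in DN minus Ct 488 did. When 32 was added to the linear values before the logarithm, the DN minus Ct difference was 0.54 and no longer past 1.5-fold.

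Col23a1 encodes a transmembrane collagen whose outer part can be shed from the cell. It read 7.74 in DN, 6.84 in TS and 7.02 in Ct, so DN lay above both other arrays. The difference was 0.72 for DN minus Ct (1.64-fold), -0.18 in TS minus Ct and 0.89 in DN minus TS (1.86-fold). In DN minus TS, 159 genes stood at least as high.

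The promoters of these 3 genes, and that of Col1a2, whose value was nearly the same on all arrays, are given so that the sequence at the 3 genes can be read beside that of a chain with little difference. They are RefSeq sequences of the GRCr8 assembly, 250 bases before to 50 after the annotated start of a transcript, read in the direction of the gene. Capitals mark CCAAT, the letters of the box of that name. They also mark TATAAA, those of a TATA box, and GGGCGG, those of a GC box. Each was searched on both strands, so its reverse complement is in capitals too. The Col11a1 window lies at chr2:204508886-204509185, Col8a1 at chr11:56246532-56246831, Col23a1 at chr10:36050077-36050376 and Col1a2 at chr4:33518307-33518606, all on the plus strand.
Col11a1: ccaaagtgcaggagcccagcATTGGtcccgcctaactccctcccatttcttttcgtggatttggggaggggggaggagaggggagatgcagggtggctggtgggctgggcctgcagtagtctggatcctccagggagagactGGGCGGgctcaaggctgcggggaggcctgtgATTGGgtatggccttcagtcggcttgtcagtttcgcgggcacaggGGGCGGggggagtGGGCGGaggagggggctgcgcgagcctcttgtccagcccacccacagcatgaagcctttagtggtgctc
Col8a1: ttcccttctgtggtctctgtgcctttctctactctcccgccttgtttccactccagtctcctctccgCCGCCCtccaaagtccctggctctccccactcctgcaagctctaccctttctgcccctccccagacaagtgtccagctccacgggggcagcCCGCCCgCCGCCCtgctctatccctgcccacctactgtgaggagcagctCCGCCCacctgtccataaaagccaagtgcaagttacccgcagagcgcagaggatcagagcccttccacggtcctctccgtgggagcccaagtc
Col23a1: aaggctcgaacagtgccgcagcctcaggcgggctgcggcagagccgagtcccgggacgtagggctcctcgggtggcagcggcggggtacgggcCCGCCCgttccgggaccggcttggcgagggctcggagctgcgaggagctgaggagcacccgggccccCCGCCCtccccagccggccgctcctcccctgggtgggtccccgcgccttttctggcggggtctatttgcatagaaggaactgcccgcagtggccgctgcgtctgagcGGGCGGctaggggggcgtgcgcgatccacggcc
Col1a2: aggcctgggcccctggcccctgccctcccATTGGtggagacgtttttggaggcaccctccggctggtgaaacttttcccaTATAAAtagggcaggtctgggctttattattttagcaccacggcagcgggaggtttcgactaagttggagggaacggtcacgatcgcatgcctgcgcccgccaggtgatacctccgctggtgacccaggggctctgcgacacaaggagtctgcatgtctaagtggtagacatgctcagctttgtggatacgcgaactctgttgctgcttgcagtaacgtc

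The Col11a1 window held 3 GGGCGG and 2 CCAAT, the Col8a1 window 4 GGGCGG, the Col23a1 window 3 GGGCGG, and the Col1a2 window 1 CCAAT and 1 TATAAA. No TATAAA was found in the windows of the 3 genes that differed. The same held for Col5a1, Col7a1, Col11a2, Col16a1 and Col27a1, which differed little or not at all and whose windows also held GGGCGG. These letters thus do not set the 3 genes apart. TATAAA stood in the windows of Col1a2, Col10a1, Col13a1 and Col17a1. RefSeq windows were found for 20 of the 25 collagens, of which 11 held GGGCGG, 7 CCAAT and 4 TATAAA. Of all 33469 windows of that length, 33.1% held GGGCGG, 37.5% CCAAT and 14.2% TATAAA on either strand. A match of letters is a description of the sequence, and binding was not measured.

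Among the other fibrillar genes, the chains of types I and III, which make up most of the fibrous collagen of muscle, differed little. Col1a1, the alpha 1 chain of type I, read 12.05 in DN, 12.28 in TS and 12.28 in Ct. Col1a2, its alpha 2 chain, read 12.66 in DN, 12.75 in TS and 12.74 in Ct. Col3a1, the type III chain of fine, pliant fibrils, read 12.16 in DN, 12.28 in TS and 12.16 in Ct. The DN array was the lowest for both type I chains, by -0.23 and -0.08 against Ct, and no difference in these genes reached 1.5-fold. These values lie within 2 log2 units of the top of the arrays, and whether differences are compressed there was not tested.

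Type V collagen lies inside type I fibrils and starts their assembly. Col5a1 read 8.62 in DN, 8.65 in TS and 8.62 in Ct, and Col5a2 read 9.96, 10.20 and 9.86. Col5a2 was highest in TS, at 0.34 above Ct, short of 1.5-fold. Col5a3 read 7.84 in DN, 8.08 in TS and 8.08 in Ct, lowest in DN at -0.24. Col27a1, a fibrillar chain known from cartilage, had the same value on each array, 6.96. Of the 10 fibrillar genes, 1 was higher and 0 lower in DN, and 0 were higher and 1 lower in TS, Col11a1 in each case. The median difference of the class was -0.01 in DN minus Ct and 0.00 in TS minus Ct.

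None of the 3 type IV genes was past 1.5-fold in any comparison. Col4a1, whose chain is part of the basement membrane of every muscle fibre and vessel, read 9.71 in DN, 10.08 in TS and 9.94 in Ct. DN was lowest and TS highest, and the difference was -0.23 for DN minus Ct, 0.14 in TS minus Ct and -0.37 in DN minus TS. Col4a3, a chain best known from kidney, lung and the neuromuscular junction, read 7.10 in DN, 6.92 in TS and 7.38 in Ct, a difference of -0.28 for DN and -0.46 for TS. Col4a4, its partner in the same trimer, had 7.05 on each array. The TS difference of Col4a3 passed the limit, at -0.59, where each array was centred on its median.

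Col4a3 and Col4a4 lie head to head on chromosome 9, with 413 bases between their annotated starts, so their promoter windows share a stretch at chr9:91323740-91323827 (GRCr8, RefSeq). It is given, on the plus strand, in the direction of Col4a3, because both genes are described above. It holds none of the motifs searched, and so no capitals.
Col4a3 and Col4a4: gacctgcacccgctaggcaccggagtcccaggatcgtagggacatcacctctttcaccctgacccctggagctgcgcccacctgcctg

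Of the beaded collagens only Col6a4, a chain of type VI, had a probe set annotated with exactly 1 symbol. Its brightest probe set read 6.14 on every array. The second had 5.52 in DN, 5.32 in TS and 5.52 in Ct, and the third 4.40 on each, both under the filter of 5.72. The 3 probe sets thus gave no difference past 0.20. The main type VI chains of muscle were not analysed here, so the beaded class rests on this gene.

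The fibril-associated collagens sit on the surface of fibrils and tie them to other matrix. Col12a1, found in tendon and around muscle bundles, read 9.06 in DN, 9.06 in TS and 8.73 in Ct, so both DN and TS were above Ct by 0.34. Col14a1, of similar build, read 9.89 in DN, 10.02 in TS and 10.07 in Ct, with DN at -0.17. Col16a1 had 7.44, Col9a1 6.25 and Col9a2 6.82 on every array. None of these 5 genes was past 1.5-fold.

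The remaining collagens differed by no more than 0.12. Col13a1, a transmembrane collagen known for a part in the maturation of the neuromuscular junction, had 6.93 in DN, in TS and in Ct. Col17a1 and Col7a1, which anchor epithelium to the tissue beneath, had 6.42 and 6.70 on each array. Col10a1, a collagen of growing cartilage, read 5.89 in DN, 5.89 in TS and 6.01 in Ct. Of these 4 genes, 3 had equal values on all arrays.

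Genes that make, cross-link, bind and break down collagen were taken from 6 lists, chosen with earlier results of these data known, so that members such as Lox and Timp1 are no independent evidence. Lox in DN and TS, at 1.47, and Timp1 in TS, at 1.56, differed from Ct by more than any collagen did. By the same limit, 4.93% of all genes compared were higher and 5.53% lower in DN, and 5.89% and 2.68% in TS. These shares apply to the counts of each list that follows. In the synthesis list of 18 measured genes, 2 were higher and 0 lower in DN, and 2 were higher and 0 lower in TS. The median was 0.00 in DN and 0.20 in TS, against 0.00 and 0.02 over all genes. Plod2, which hydroxylates lysines of the ends of collagen chains for cross-linking, read 11.02 in DN, 10.52 in TS and 9.83 in Ct, a difference of 1.19 and 0.69. P3h2, a prolyl 3-hydroxylase, was higher by 0.94 in DN and 0.63 in TS. P4ha2, a prolyl 4-hydroxylase chain, stood at 0.36 and 0.55, and Plod3, another lysyl hydroxylase, at 0.00 and 0.50. With centred arrays, P3h2 and Plod2 in TS came to 0.50 and 0.56, short of 1.5-fold.

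**Figure D3:**
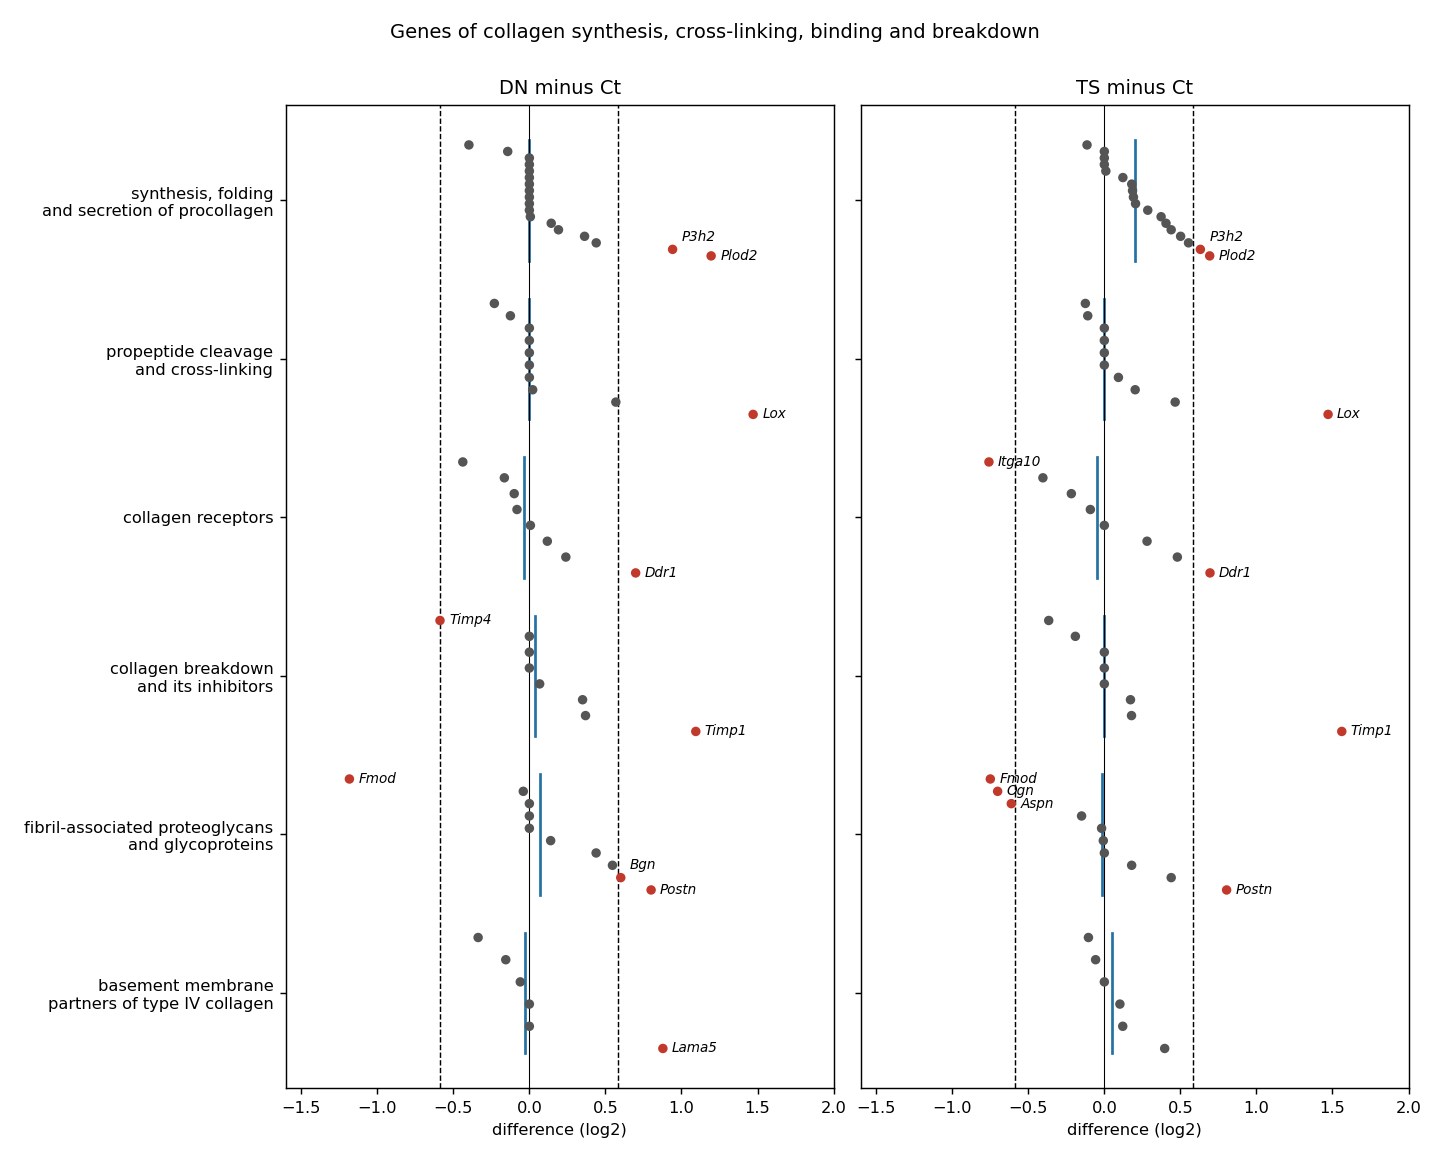
Difference in log2 value (horizontal axis) in DN and in TS, each minus Ct, of every compared member of 6 lists of collagen partner genes, a point per gene, with a blue line at the median of each list, dashed lines at 1.5-fold and the genes past it in red and named. Lox stands at 1.47 in both panels, Timp1 at 1.09 and 1.56, Plod2 at 1.19 and 0.69, and Fmod at -1.18 and -0.75.

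Among 10 compared genes of propeptide cleavage and cross-linking, 1 was higher and 0 lower in DN and likewise in TS, with a median of 0.00 in each. It was Lox, the lysyl oxidase that starts the cross-links, which read 10.02 in DN, 10.02 in TS and 8.55 in Ct. Its relative Loxl1 stood at 0.57 in DN and 0.47 in TS, just short of the limit. Loxl2 stood at -0.23 and -0.11, and Pcolce, an enhancer of procollagen cleavage, at 0.02 and 0.20.

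Of 8 collagen receptors compared, 1 was higher in DN and 0 lower, and in TS 1 was higher and 1 lower. Ddr1, a receptor tyrosine kinase that binds collagen, read 9.12 in DN, 9.11 in TS and 8.42 in Ct, a difference of 0.70 and 0.69, that of TS being 0.56 with centred arrays. Itga10, an integrin chain of cartilage and connective tissue, read 5.94 in DN, 5.35 in TS and 6.11 in Ct, with TS at -0.76 and below the filter limit. Itga1, whose integrin binds type IV collagen, stood at -0.44 in DN and -0.40 in TS, and the endocytic receptor Mrc2 at 0.12 and 0.48. The median was -0.04 in DN and -0.05 in TS.

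Of 8 compared genes of collagen breakdown and its inhibitors, 1 was higher and 1 lower in DN, and 1 was higher and 0 lower in TS. Timp1, an inhibitor of matrix metalloproteinases, read 9.92 in DN, 10.39 in TS and 8.83 in Ct. Timp4, a relative of it, read 8.86 in DN, 9.08 in TS and 9.44 in Ct, a difference of -0.59, at the limit, and -0.37. Timp2 stood at 0.35 and -0.19, and the cathepsin Ctsk, which cleaves collagen, at 0.37 and 0.17. The collagenases Mmp8 and Mmp13 and the proteases Mmp3 and Mmp9 were measured but lay below the filter. The metalloproteinases Mmp2 and Mmp14 lay above it. Mmp2 read 11.16 on each array, and Mmp14 read 9.46 in DN, 9.57 in TS and 9.39 in Ct. The median was 0.03 in DN and 0.00 in TS.

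The proteins that coat fibrils went both ways. Of 10 genes, 2 were higher and 1 lower in DN, and 1 was higher and 3 lower in TS, with medians of 0.07 and -0.01. Fmod, fibromodulin, read 8.56 in DN, 8.99 in TS and 9.74 in Ct. Postn, the matricellular protein periostin, read 11.70 in DN, 11.70 in TS and 10.90 in Ct. Ogn, the small proteoglycan osteoglycin, read 12.64 in DN, 11.39 in TS and 12.09 in Ct, above Ct in DN by 0.55 and below it in TS at -0.70. Aspn, asporin, was lower in TS at -0.61 and stood at -0.04 in DN, and Bgn, biglycan, was higher in DN by 0.60.

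Of 6 measured partners of type IV collagen in basement membranes, 1 was higher and 0 lower in DN and none was past 1.5-fold in TS. It was the laminin chain Lama5, which read 8.32 in DN, 7.84 in TS and 7.44 in Ct. The laminin chain Lamc1 stood at -0.34 in DN and -0.10 in TS, Lamb2 at -0.06 and 0.12, and Agrn, agrin, at -0.16 and -0.06. The medians were -0.03 and 0.05, and Col4a1 itself stood at -0.23 and 0.14.

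Markers of the cells known to make collagen were set beside these values. Of all genes compared, 4.93% were higher and 5.53% lower in DN, and 5.89% and 2.68% in TS, which applies to each cell type below. Of 8 fibroblast markers, 0 were past 1.5-fold in DN and 1 was higher in TS, with medians of 0.02 and 0.00. The 2 largest differences were in Pdgfra (0.40 in DN, 0.81 in TS) and Cd34 (-0.33 and -0.55, or -0.68 in TS with centred arrays). The summed linear level of the list was 19899 in DN, 17836 in TS and 19468 in Ct, and no member read below 7.48. Of 7 tendon markers, 2 were higher and 4 lower in DN, and 0 were higher and 4 lower in TS, with a median of -1.18 in DN and -0.75 in TS. Fmod is also on this list. The largest differences were those of Chad (-1.62 and -1.35) and Tnmd (-1.61 and -1.22). The summed level was 6060 in DN, 4727 in TS and 6397 in Ct, and no member read below 7.53 on any array. Their part in the Col11a1 and Col12a1 values was not tested.

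Of 8 endothelial markers, 2 were lower in DN and 1 in TS and none higher, with Kdr at -0.87 and -0.73 and Flt1 at -0.70 and -0.11, and a summed level of 5795 in DN, 6555 in TS and 7571 in Ct. Of 9 smooth muscle and pericyte markers, 3 were lower in DN and none was past the limit in TS, led by Kcnj8 (-0.87 and -0.34) and Cspg4 (-0.83 and 0.42), with a sum of 9599 in DN, 10524 in TS and 11137 in Ct. Of 10 macrophage markers, 0 were past the limit in DN and 4 were higher in TS, led by Cd163 (0.31 and 1.17) and Mrc1 (0.44 and 0.95), with a sum of 5446 in DN, 7097 in TS and 4734 in Ct. The lowest member read 8.22 among the endothelial, 6.53 among the smooth muscle and 6.90 among the macrophage markers. The part of any of these cell types in the higher Col8a1 values of DN and TS was not tested. With centred arrays, 2 of the 4 macrophage calls in TS, Adgre1 (0.47) and C1qb (0.55), fell short of the limit. Of 8 adipocyte markers, 3 were higher in DN and 3 higher and 1 lower in TS, led by Adipoq (2.10 and 1.62) and Cfd (1.32 and 1.42). Others went the other way, Lpl at -0.43 and -0.90 and Fabp4 at -0.02 and -0.43. The summed level of the list was 9752 in DN, 7622 in TS and 9889 in Ct. Of 6 Schwann cell markers, 1 was higher in DN and 1 in TS, Cnp (0.79 and 0.51) and Prx (-0.31 and 0.67, the second being 0.53 with centred arrays). Of 8 slow-fibre genes, 4 were lower in DN and 1 in TS, with medians of -0.63 and -0.33, led by the myosin light chains Myl3 (-1.30 and -0.51) and Myl2 (-1.13 and -0.94). With centred arrays Myl3 stood at -0.65 in TS, so that 2 were lower there. Of 6 genes of all muscle fibres, 1 was lower in DN and 1 higher in TS, with medians of -0.09 and 0.04, led by Ckm (-1.12 and -0.06) and Ryr1 (0.36 and 1.08).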

How the data were processed

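Soleus RNA pooled over 6 rats per group was measured on 1 array each for DN, TS and Ct, placed in groups by the labels. Per the labels and submitters' processing notes, the authors produced the deposited log2 values with Affymetrix Expression Console by RMA in a core-exon analysis. The base of the logarithm is read as 2 from the values. Software version, annotation and build: not given in the sources used here. The series text speaks of 2 arrays, and 3 columns of values were used. Precision is limited by the number of arrays.

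The platform annotation gave 15310 of 29170 probe sets 1 symbol, 323 several and 13537 none. The gene identifiers of all 25 collagens were found in a RefSeq table of GRCr8, and 0 symbols differed. Of 14506 genes, the 10154 bright enough (30th percentile of the mean) were compared. Differences of log2 values were called at 1.5-fold, with no p-value. Calls were tested on simulated data with planted differences, as a check of the calculation only. How reliable a call from 1 array per group is was not tested. The collagen members, classes, partner and marker lists and limits were chosen with earlier results of these data known. Values on each array were given for collagens named in the rule and for any past 1.5-fold, and differences, some with array values, for up to 4 members of each partner list with the largest difference from Ct and for the 2 largest of each marker list. The remaining collagens and Bgn, Tnni1, Myh7, Scx, Dpt, Dcn, the Mmp genes, Adgre1, C1qb, Lpl and Fabp4 were named after their values were seen. Python 3.11.15, numpy 2.4.6, pandas 2.3.3 and matplotlib 3.10.9 were used.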

Additional observations from a re-analysis of the deposited data

Results flagged for a closer look

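Col11a1 differed from Ct in opposite directions in the 2 treated groups, past 1.5-fold in each. It was higher in DN by 1.12 and stood at -0.82 in TS, so that DN minus TS was 1.94 (log2). With 1 array per group and Ct shared by both, this difference between denervation and suspension was not tested. It was the 1 collagen of 25 with this pattern. How many of all genes compared had it was not counted. At any size, 4.35% of them had DN above Ct and TS below it.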

How the results depend on the processing

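Tried in turn were arrays centred on their medians, quantile normalization, linear values raised by 32, filters at the 50th percentile or none, averaging the probe sets of a gene, leaving out genes with several, and a 2-fold limit. Single collagens gave 486 values under the 7 alternatives other than the limit. Of these, 484 kept their side of 1.5-fold, and no called value changed sign. The exceptions were Col4a3 in TS minus Ct (-0.59 with centring) and Col8a1 in DN minus Ct (0.54 with 32 added). Many of the 486 could not move, since the filters and the handling of probe sets left the value of each compared collagen as it was. Only centring, quantile normalization and the added 32 could change a value. At 2-fold, collagens called higher numbered 1 in DN minus Ct and 1 in DN minus TS, Col11a1 in each. Of all genes, 2.24% and 1.2% were higher in these comparisons. In TS minus Ct, 1 collagen was higher at 2-fold, Col8a1, and 0 were lower, against 1.37% and 0.69% of all genes. With the filter at the 50th percentile, 14 collagens were compared and 1 was higher in DN minus TS, against 3.65% of all genes. Centring lowered each TS minus Ct difference by 0.13, so that 2 collagens, Col11a1 and Col4a3, were lower in TS and the median over the collagens was -0.13 in TS minus Ct and 0.13 in DN minus TS, where that over all genes was -0.12 and 0.12. With the filter at the 50th percentile the median for DN minus TS was -0.11. No paired analysis was possible because each group has 1 array. No replicate could be left out for the same reason.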

Other observations

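Of 74 compared genes on the partner, fibroblast and tendon lists, 5 had the same order of arrays as Col11a1, with DN highest and TS lowest, as did 4.35% of all genes compared. They were Ogn, Scx, Timp2, Dpt and Dcn. Scx, a transcription factor of tendon cells, read 9.44 in DN, 8.48 in TS and 8.83 in Ct. DN stood 0.62 above Ct and 0.96 above TS, and TS at -0.34 against Ct. Of the 7 tendon markers, 2 including Scx were higher in DN than in Ct and 4 lower, with a median of -1.18. Of all genes compared, 4.93% were higher and 5.53% lower in DN. The DN minus TS difference was 1.25 for Ogn, 0.54 for Timp2, 0.49 for Dpt and 0.29 for Dcn. Those of Timp2, Dpt and Dcn were short of 1.5-fold. With centred arrays Timp2 (0.67) and Dpt (0.61) were past it and Dcn (0.42) was not. The order was looked for after the values of Col11a1 were seen, and no relation between these genes was tested.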
